A study of Mus musculus with 8 samples.

Results

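The 10 mouse enzymes followed here make serine, one-carbon folate units, proline and asparagine, and they were measured in P19 cells with and without knockdown of Upf3a. They were chosen by name, as the genes Phgdh, Psat1, Psph, Shmt1, Shmt2, Mthfd1, Mthfd2, Mthfd1l, Aldh18a1 and Asns, and all 10 of 10 were found among the 23284 genes of the deposited table. P19 is a mouse embryonal carcinoma line, a pluripotent tumour cell grown in culture. Cells were transfected with siUPF3A, a small interfering RNA against Upf3a, or with a control small interfering RNA, siControl. After 24 h both arms received actinomycin D, which stops transcription, and total RNA was taken at 0, 15, 105 and 225 min. The arms are called siUPF3A and siControl here, and the labels give the drug for all 8 conditions, 0 min included.

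The labels list 2 control cultures or 2 knockdown cultures for each condition, but the table gives 1 value per condition, so the spread between cultures could not be seen. Each arm is therefore 4 values, one per time. Tests set the arms against each other with the time as a block, and their error is the disagreement between times, not between cultures. Levels are FPKM, a fragment count scaled to transcript length and library size, and the authors' lower and upper limits stand beside each of them. A knockdown by small interfering RNA leaves some of the target, and a single cell line limits what the values stand for. Because FPKM is relative to the other RNA sequenced, a gene whose mRNA outlasts the average of that RNA can gain FPKM under actinomycin D without any new synthesis.

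Serine is made from the glycolytic intermediate 3-phosphoglycerate by Phgdh, Psat1 and Psph in turn. Serine hydroxymethyltransferases then pass a carbon from serine to folate, and folate enzymes in the cytosol and in mitochondria exchange that carbon for use in purines, thymidylate and methionine. Asns makes asparagine and Aldh18a1 starts proline synthesis. In mammalian cells several of these genes are known to be switched on by the transcription factor Atf4 when amino acids run short. UPF3A is a relative of UPF3B, a factor of nonsense-mediated decay, the pathway that destroys mRNAs with early stop codons.

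Upf3a itself was at 5.27, 4.52, 4.76 and 4.16 FPKM in siUPF3A at 0, 15, 105 and 225 min, against 13.6, 14.0, 14.0 and 15.0 FPKM in siControl. The mean log2 ratio was -1.42 with an SD of 0.17 over the 4 times, and the authors' limits of the arms were apart at 4 of 4 times. Flipping the signs of these 4 ratios in an exact two-sided permutation test gave p = 0.125, the smallest that this design allows. Sums of FPKM over all genes lay between 537350 and 923333 per condition, 10832 to 11600 genes reached 1 FPKM, and the sequencing depth is unknown. Of 10 P19 pluripotency markers, 7 were higher in siUPF3A and 0 lower (limma, adjusted p under 0.05). By that test 26.1% of all genes tested were higher and 22.3% lower. The 10 markers summed to 2594 to 4289 FPKM in siUPF3A and 2114 to 3453 FPKM in siControl. Tdgf1, for example, averaged 103 ± 5.89 FPKM in siUPF3A and 47.3 ± 2.41 FPKM in siControl, and Nanog and Dnmt3b were higher by 0.64 and 0.65 on the log2 scale. Neural markers summed to 75.8 to 97.9 FPKM in siUPF3A and 79.3 to 108 FPKM in siControl, with 1 of 4 tested higher, 2 lower, and Neurog1 and Neurog2 under 1 FPKM on average. The neuronal Elavl3 and Tubb3 were lower at -0.80 and -0.19, and Nefl higher by 0.16. Fibroblast and smooth muscle markers summed to 24.4 to 43.2 FPKM in siUPF3A and 23.6 to 41.6 FPKM in siControl, with 1 of 5 tested higher, 1 lower, and Col3a1, Pdgfrb, Dcn, Lum and Postn under 1 FPKM. Col1a2 was lower at -0.54, Tagln higher by 0.39, and Acta2 differed by -0.12 without passing. The part of the pluripotency markers' difference in the results that follow was not tested. Fewer cells of a type and less RNA per cell cannot be told apart in these libraries.

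All 10 enzymes were expressed at 26.8 FPKM or more in every condition, and all passed the filter of a mean FPKM of 1 that left 11452 genes to test. Psat1 was the most abundant, with a mean of 380.3 FPKM over the 8 conditions, followed by Asns at 210.5, Phgdh at 209, Shmt2 at 151 and Mthfd1 at 124 FPKM. The lower group held Shmt1 at 65.0, Mthfd2 at 63.1, Aldh18a1 at 48.2, Mthfd1l at 45.0 and Psph at 39.1 FPKM. Asns and Phgdh overlapped in range, as did Shmt2 and Mthfd1, and the 5 lower genes overlapped with their neighbours. No condition of Mthfd1, at 99.2 FPKM or more, fell into the range of the lower group, which reached 84.5 FPKM in Mthfd2.

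Across the 10 enzymes, 6 were lower in siUPF3A, 1 was higher and 3 did not pass the test, at an adjusted p under 0.05 by limma with Benjamini-Hochberg adjustment over all 11452 genes. Of all genes tested, 22.3% were called lower and 26.1% higher, which are 2557 and 2986 genes. When levels were scaled to the ribosomal protein genes instead, that split was 1243 lower and 3870 higher. Under that scaling Psph, Mthfd2 and Aldh18a1 remained lower and Shmt1 higher, while Phgdh, Mthfd1l and Asns no longer passed, with adjusted p = 0.0771, 0.273 and 0.147. Without the time block no enzyme passed in limma, 0 of 10, against 487 of the 11452 genes. In that fit 1 enzyme had an unadjusted p under 0.05, against 1840 genes in all. The enzymes' median log2 difference was -0.16, against 0.0046 for all genes tested. Psph, Mthfd2, Aldh18a1, Phgdh and Mthfd1l lay below siControl at all 4 times, 5 of 10, against 28.6% of all genes tested. Shmt1 lay above it at all 4 times, 1 of 10, against 31.8% of all genes. The authors' limits of the arms overlapped at every time for every enzyme, so 0 of 10 were apart, against 2.9% of all genes apart at 1 or more times. Median log2 ratios of the 10 enzymes were -0.21, -0.16, -0.26 and -0.03 at 0, 15, 105 and 225 min. The medians of all genes tested were -0.0083, 0.022, 0.0062 and 0.0095 at these times, and those of the 77 ribosomal protein genes were -0.15, -0.07, -0.15 and 0.04. The ribosomal protein genes, like the enzymes, had their lowest medians at 0 and 105 min and their highest at 225 min, and their part in the result was not tested. In all, 9, 7, 9 and 5 of the 10 enzymes lay below siControl at the 4 times. The share of all genes below siControl at each single time is not given here, so these counts are a description.

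**Figure D1:**
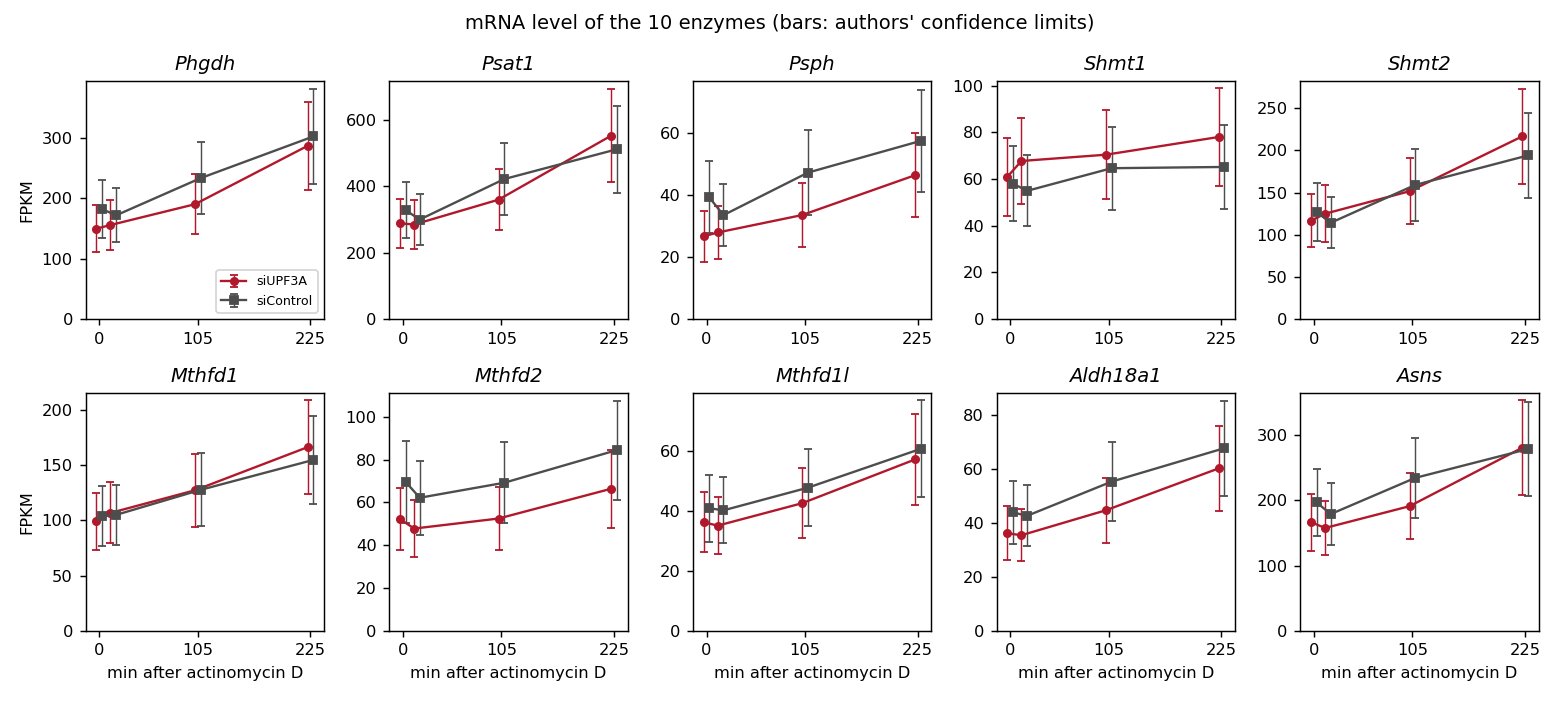
FPKM of each enzyme (vertical axis, from 0) against minutes after actinomycin D in siUPF3A (red circles) and siControl (grey squares), with points set slightly apart and bars for the authors' confidence limits. Psph and Mthfd2 lie below siControl at all 4 times, Shmt1 lies above it, and the bars of the arms overlap in every panel.

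Gene positions are from GENCODE vM21 on GRCm38. Phgdh (chr3:98313170-98339990, minus strand), the first enzyme of serine synthesis, had 149.5, 156, 189.9 and 286 FPKM in siUPF3A at 0, 15, 105 and 225 min, against 182, 172, 233 and 302 FPKM in siControl. Each siUPF3A value lay below its siControl partner, although the arms' ranges over time overlapped. Its log2 difference was -0.20 ± 0.052 (SE, limma, adjusted p = 0.0167). That call was lost without the 0 min pair (adjusted p = 0.0679) and without the 105 min pair (adjusted p = 0.0732). Phgdh also has 21 annotated copies that match its transcripts over at least 500 bases at 88.2% to 98.7% identity, so reads could be split among them and its level is uncertain. Of these copies 1, Gm8096, was found by name in the table, at a mean of 0.0097 FPKM beside 209 FPKM for Phgdh.

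Psat1 (chr19:15904678-15947337, minus strand), the transaminase that follows, had 288, 284, 359 and 552 FPKM in siUPF3A, against 327, 299, 421 and 511 FPKM in siControl. It was lower at the first 3 times and higher at 225 min. The difference of -0.09 ± 0.062 (SE) did not pass (limma, adjusted p = 0.246), but without the 225 min pair it was -0.16 and passed (adjusted p = 0.0436). Psat1 has 1 annotated copy at 91.0% identity.

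Psph (chr5:129765558-129787449, minus strand), the phosphatase that releases serine, had, with Mthfd2, one of the 2 most negative differences. It had 26.8, 28.0, 33.6 and 46.5 FPKM in siUPF3A, against 39.3, 33.6, 47.3 and 57.6 FPKM in siControl. All 4 siUPF3A values were below their partners, at 68.1%, 83.3%, 71.1% and 80.7% of siControl. Its log2 difference was -0.39 ± 0.058 (SE, limma, adjusted p = 0.00154). Exons of Psph and of Cct6a, a chaperonin subunit on the other strand, share 452 bases, and no source used here says whether the libraries kept the strand. Cct6a, at 303 to 462 FPKM in siUPF3A and 283 to 397 FPKM in siControl, had a log2 difference of 0.09 ± 0.049 (SE) that did not pass (limma, adjusted p = 0.183). The part of the shared bases in the Psph values was not tested.

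Mthfd2 (chr6:83305691-83325908, minus strand), the mitochondrial folate dehydrogenase and cyclohydrolase, had the most even log2 ratio of the 10, with an SD of 0.028 over the 4 times. It stood at 52.3, 47.8, 52.5 and 66.5 FPKM in siUPF3A, against 69.6, 62.2, 69.2 and 84.5 FPKM in siControl. These are 75.1%, 76.8%, 75.8% and 78.6% of siControl at the 4 times. The log2 difference was -0.38 ± 0.040 (SE, limma, adjusted p = 3.8e-04). Mthfd1l (chr10:3973118-4167081, plus strand), which handles the next mitochondrial step and releases formate, had 36.1, 35.0, 42.5 and 57.1 FPKM in siUPF3A, against 40.8, 40.1, 47.7 and 60.6 FPKM in siControl. It was lower at every time, with a log2 difference of -0.15 ± 0.041 (SE, limma, adjusted p = 0.0197). Leaving out the 0, 15 or 105 min pair ended that call, with adjusted p = 0.0635, 0.0876 and 0.0682.

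Mthfd1 (chr12:76255298-76319803, plus strand), the cytosolic counterpart with all 3 folate activities, had 99.2, 107, 127 and 166 FPKM in siUPF3A, against 104, 105, 128 and 155 FPKM in siControl. The arms crossed over time and the difference was 0.01 ± 0.045 (SE, limma, adjusted p = 0.818). Shmt2 (chr10:127517123-127522444, minus strand), the mitochondrial serine hydroxymethyltransferase, had 117, 125, 152 and 217 FPKM in siUPF3A, against 127, 114, 159 and 194 FPKM in siControl. It was lower at 0 and 105 min and higher at 15 and 225 min, and its difference of 0.02 ± 0.059 (SE) did not pass (limma, adjusted p = 0.755). Shmt2 has 1 annotated copy at 89.9% identity. For both genes the sign of this small difference turned under some other settings.

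Shmt1 (chr11:60788104-60811718, minus strand), the cytosolic serine hydroxymethyltransferase, was the 1 enzyme called higher. It had 61.0, 67.8, 70.4 and 78.0 FPKM in siUPF3A, against 58.1, 55.0, 64.7 and 65.2 FPKM in siControl. Each siUPF3A value was above its partner, at 105%, 123%, 109% and 119.7% of siControl. The log2 difference was 0.19 ± 0.052 (SE, limma, adjusted p = 0.0215), and it no longer passed without the 15 min pair (adjusted p = 0.0959) or the 225 min pair (adjusted p = 0.0669). Its exons share 184 bases with Smcr8 on the other strand.

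Aldh18a1 (chr19:40550257-40588463, minus strand), which makes the proline precursor pyrroline-5-carboxylate, had 36.1, 35.4, 44.6 and 60.1 FPKM in siUPF3A, against 43.8, 42.6, 55.2 and 67.6 FPKM in siControl. It was lower at all 4 times, with a log2 difference of -0.25 ± 0.043 (SE, limma, adjusted p = 0.00288). Asns (chr6:7675169-7693254, minus strand), asparagine synthetase, had 166, 158, 191 and 281 FPKM in siUPF3A, against 197, 179, 234 and 279 FPKM in siControl. It was lower at the first 3 times and lay just above siControl at 225 min. Its difference was -0.18 ± 0.057 (SE, limma, adjusted p = 0.0383), the call closest to the threshold. The call was also lost with a pseudocount of 0.1 (adjusted p = 0.056), without the filter on low values (0.0811) and with median-of-ratios scaling (0.0676), and it held under 5 of 13 alternatives. Without the 0, 15 or 105 min pair the adjusted p of Asns was 0.126, 0.103 and 0.146.

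**Figure D2:**
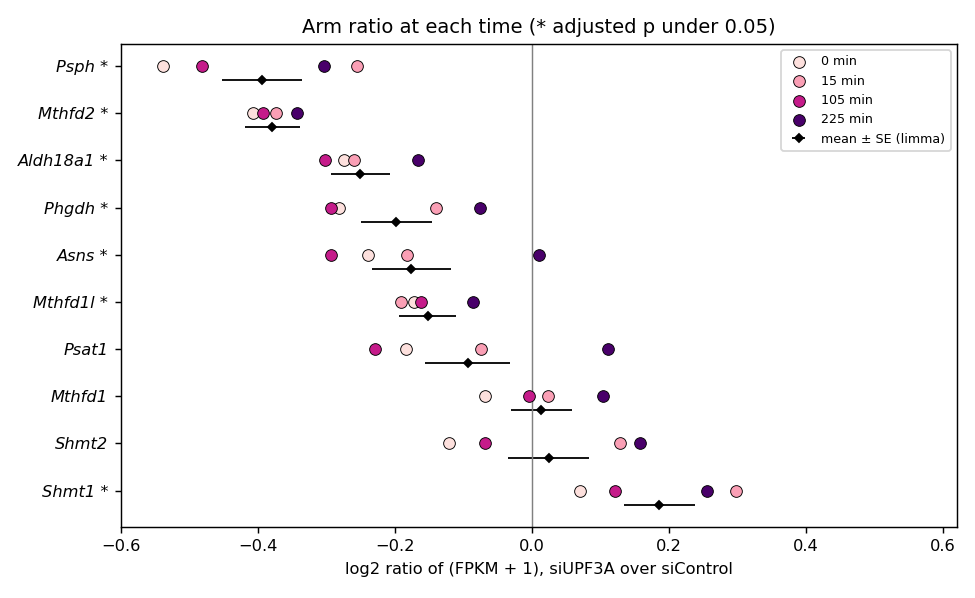
Log2 ratio of (FPKM + 1), siUPF3A over siControl, at each time (circles, darker for later times) for each enzyme, with the limma mean and its SE (diamonds and bars); asterisks mark an adjusted p under 0.05. Psph and Mthfd2 have the most negative means, -0.39 and -0.38, and Shmt1 the most positive, 0.19.

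Ratios of 2 enzymes within the same condition do not depend on how a library was scaled. The 4 pairs given here were chosen after their values were seen, so they are a description. Mthfd2 over Mthfd1, the mitochondrial against the cytosolic folate enzyme, was 0.527, 0.447, 0.412 and 0.399 in siUPF3A, against 0.669, 0.592, 0.542 and 0.546 in siControl. Mthfd1l over Mthfd1 was 0.364, 0.328, 0.334 and 0.343 in siUPF3A, against 0.392, 0.382, 0.373 and 0.391 in siControl. For both mitochondrial enzymes every siUPF3A ratio was below every siControl ratio.

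Shmt2 over Shmt1 was 1.91, 1.84, 2.15 and 2.78 in siUPF3A, against 2.19, 2.08, 2.46 and 2.98 in siControl. Here the arms overlapped in range, although each time had the lower ratio in siUPF3A. Psph over Psat1, the last against the middle enzyme of serine synthesis, was 0.0929, 0.0984, 0.0936 and 0.0842 in siUPF3A, against 0.120, 0.112, 0.112 and 0.113 in siControl. All 4 siUPF3A values of that ratio lay below all 4 siControl values.

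**Figure D3:**
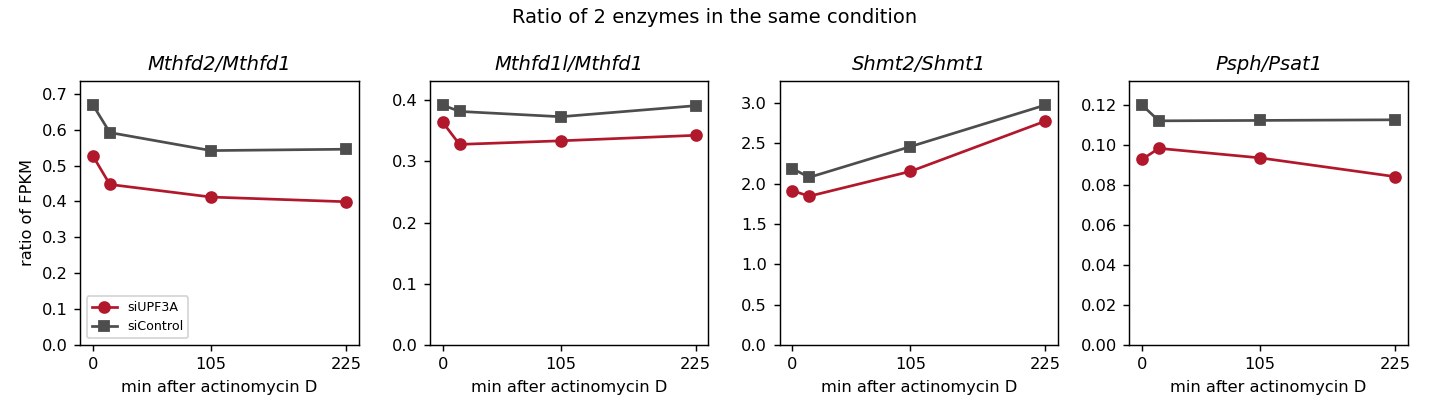
Ratio of the FPKM of 2 enzymes in the same condition (vertical axis, from 0) against minutes after actinomycin D in siUPF3A (red circles) and siControl (grey squares). The siUPF3A line runs below the siControl line in all 4 panels, with Mthfd2 over Mthfd1 at 0.399 in siUPF3A and 0.546 in siControl at 225 min.

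The promoter windows of the enzymes, 250 bases before to 50 after each RefSeq start on GRCm38.p6, were searched on both strands for 4 motifs. All 10 enzymes had an entry, with 11 windows in all. TGATGNAA, the composite element bound by C/EBP and ATF factors, was found in 1 enzyme, Asns, 23 bases before the start, and in 3.97% of all 32851 windows. CACGTG, the E-box of Myc-type factors, was found in Aldh18a1 alone among the 10, 59 bases before the start, and in 7.15% of all windows. CCAAT was found in 6 enzymes and in 37.4% of all windows, and GGGCGG, the GC box, in 7 enzymes and in 35.7% of all windows. A match is a description of the letters and not evidence of binding.

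Stretches that end at the base before the RefSeq start are given for an enzyme lower in siUPF3A with 3 CCAAT matches (Mthfd2), for the enzyme with the E-box (Aldh18a1), for the enzyme called higher (Shmt1) and for the one with the composite element (Asns). Each is written 5′ to 3′ on the gene's own strand, with any of the 4 motifs in either orientation in capitals. Asns is kept to 30 bases. These bases lie inside its GENCODE gene span, whose upstream end is base 7693254, so they may be part of an annotated transcript. Mthfd2, lower in siUPF3A, lies at chr6:83317605-83317724, minus strand. That is inside its GENCODE gene span, whose upstream end is base 83325908. Aldh18a1, lower, lies at chr19:40588464-40588583, minus strand. Shmt1, higher, lies at chr11:60811266-60811385, minus strand, also inside its gene span, whose upstream end is base 60811718. Asns, lower, lies at chr6:7693210-7693239, minus strand.
Mthfd2: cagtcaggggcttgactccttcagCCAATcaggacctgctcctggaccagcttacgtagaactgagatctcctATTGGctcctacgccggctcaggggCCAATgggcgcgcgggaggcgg
Aldh18a1: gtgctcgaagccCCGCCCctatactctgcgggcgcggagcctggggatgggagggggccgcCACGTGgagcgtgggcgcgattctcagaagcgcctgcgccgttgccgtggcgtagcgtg
Shmt1: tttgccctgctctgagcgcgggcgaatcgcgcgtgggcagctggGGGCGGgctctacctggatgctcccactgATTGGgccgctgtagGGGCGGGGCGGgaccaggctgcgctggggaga
Asns: agccacaTGATGAAActtcccgcacgcgtt
Mthfd2 and Shmt1 both hold a CCAAT in one orientation or the other. A relation between the motifs and the direction of the arm difference was not tested.

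During actinomycin D the FPKM of all 10 enzymes was higher at 225 than at 0 min in both arms on the deposited scale, but all 10 slopes were negative when levels were scaled to the ribosomal protein genes. In a fit with one slope for both arms, 10 of 10 had a slope above 0 (limma, adjusted p under 0.05), against 42.7% of all genes tested. Their median slope was 0.19 log2 units per hour, against 0.01 for all genes and 0.30 for the 77 ribosomal protein genes. Scaling to the ribosomal protein genes moved the median slope of all genes to -0.23. Relative to all genes, the enzymes thus stood at a median percentile of 88.0.

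Phgdh and Psat1, the first enzymes of serine synthesis, had slopes of 0.23 each. The slope of Phgdh carried an SE of 0.017 (limma, adjusted p = 7.2e-06). Its FPKM at 225 min was 1.92 times that at 0 min in siUPF3A and 1.66 times in siControl. For Psat1 these folds were 1.92 in siUPF3A and 1.56 in siControl. Shmt2 followed with a slope of 0.21 and folds of 1.86 in siUPF3A and 1.53 in siControl.

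Psph, Aldh18a1, Asns, Mthfd1 and Mthfd1l formed a middle group with slopes of 0.17 to 0.19. Their folds from 0 to 225 min lay between 1.58 and 1.74 in siUPF3A and between 1.42 and 1.54 in siControl. Mthfd2 and Shmt1 had the flattest courses, with slopes of 0.099 (limma, adjusted p = 0.0024) and 0.068 (adjusted p = 0.0058). Mthfd2 reached 1.27 times its 0 min level in siUPF3A and 1.21 times in siControl, and Shmt1 reached 1.28 times in siUPF3A and 1.12 times in siControl. Without the 225 min pair the slope of Mthfd2 no longer passed (adjusted p = 0.505). The mitochondrial and cytosolic forms ordered differently in the 2 pairs, with Shmt2 steeper than Shmt1 and Mthfd2 flatter than Mthfd1.

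**Figure D4:**
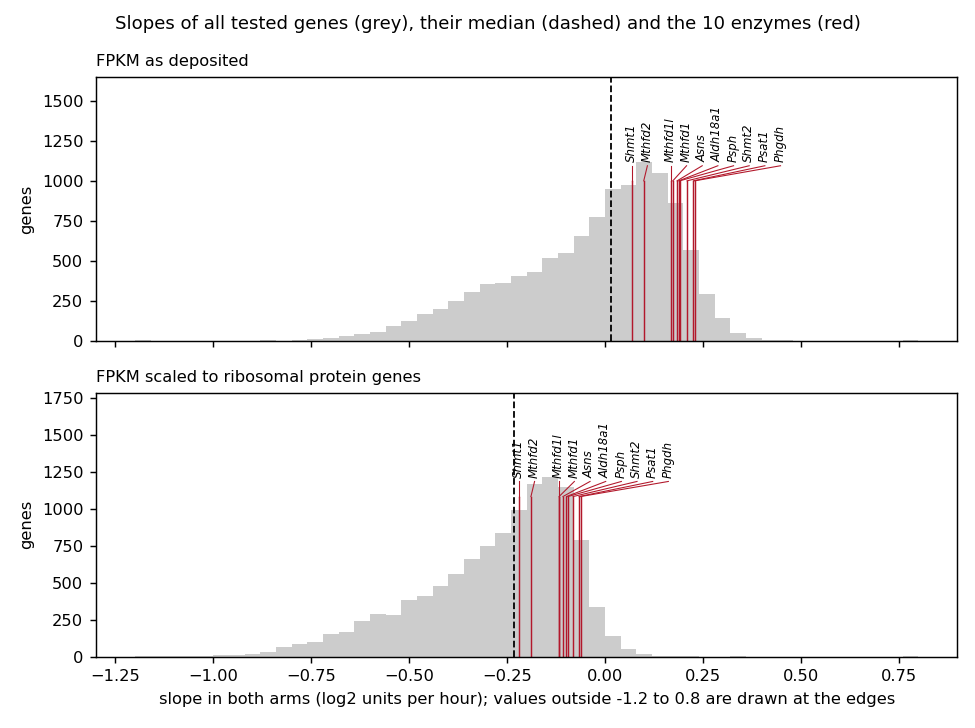
Number of tested genes (vertical axis) by slope in log2 units per hour (grey bars), with the median of all genes (dashed) and the 10 enzymes (red lines). On the deposited scale all 10 enzymes lie right of the median of 0.01, and after scaling to the ribosomal protein genes they lie right of the median of -0.23 with slopes below 0.

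The question of stability was put to each enzyme by the difference in slope between the arms, siUPF3A minus siControl. No enzyme passed, 0 of 10 by limma with adjusted p between 0.784 and 0.929, against 0.00873% of all genes tested, which is 1 gene. At an unadjusted p under 0.05 there were 0 enzymes and 762 genes in all, and a limma fit with a trend and robust variances called 6 genes and 0 enzymes. All 10 estimates were positive on the deposited scale, from 0.01 for Mthfd2 to 0.06 log2 units per hour for Psat1. Their median was 0.030, against 0.0033 for all genes tested. When levels were scaled to the ribosomal protein genes, 7 of the 10 turned negative. Leaving out the 225 min pair also turned 7 of the 10 negative. The estimate for Psat1 carried an SE of 0.037, and a difference in stability was not detectable for these mRNAs.

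The rest of the pathway was described by lists, whose counts stand beside 26.1% higher and 22.3% lower of all genes tested. Of 13 tested genes of serine and glycine metabolism outside the 10, 5 were higher in siUPF3A and 0 lower, with a median difference of 0.13. Amt, the aminomethyltransferase of the glycine cleavage system, averaged 30.6 ± 7.80 FPKM in siUPF3A and 16.2 ± 2.17 FPKM in siControl (SD, 4 times each). Its log2 difference was 0.86 ± 0.078 (SE, limma, adjusted p = 2.2e-04). Dld, the lipoamide dehydrogenase shared by that system, averaged 43.2 ± 1.12 FPKM in siUPF3A and 35.0 ± 2.33 FPKM in siControl, and Pipox, which degrades pipecolate and sarcosine, 21.8 ± 4.31 FPKM in siUPF3A and 17.3 ± 2.57 FPKM in siControl.

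Among 13 other folate enzymes and transporters, 2 were higher and 5 lower, with a median of -0.10. Slc46a1, the proton-coupled folate transporter, and Slc19a1, the reduced folate carrier, were lower, with log2 differences of -0.33 and -0.29. Slc19a1 averaged 17.1 ± 0.917 FPKM in siUPF3A and 21.1 ± 0.948 FPKM in siControl. Slc46a1 averaged 1.42 ± 0.167 FPKM in siUPF3A and 2.05 ± 0.349 FPKM in siControl, close to the filter of 1 FPKM.

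Of 11 methionine cycle and transsulfuration genes, 2 were higher and 2 lower, with a median of -0.01. Mmachc, a cobalamin-processing protein, averaged 20.6 ± 2.34 FPKM in siUPF3A and 7.60 ± 0.927 FPKM in siControl, a log2 difference of 1.33. Mat2a, which makes S-adenosylmethionine, was higher by 0.31 and Cth, the last transsulfuration enzyme, lower at -0.22. Of 18 proline, glutamate and aspartate enzymes 2 were higher and 2 lower, with a median of 0.04. Prodh, which degrades proline, was higher by 0.44, and Pycr1, the enzyme that completes the synthesis Aldh18a1 starts, was lower at -0.20. Asrgl1, an asparaginase-like hydrolase, was lower at -0.28. Of 20 genes of nucleotide synthesis, listed as purine and thymidylate synthesis, 6 were higher and 4 lower, with a median of 0.03. Among them were Tk1, thymidine kinase, higher by 0.78, Impdh1 by 0.28 and Dhodh, of pyrimidine synthesis, by 0.27.

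Atf4, the factor of the amino acid response, had 129, 124, 104 and 64.4 FPKM in siUPF3A, against 115, 99.4, 82.6 and 50.7 FPKM in siControl. It was higher at all 4 times, by 0.28 (limma, adjusted p = 0.00245). The part of Atf4 in the levels of the enzymes was not tested. Of 27 tested amino acid response genes outside the 10, Atf4 included, 14 were lower and 3 higher, with a median of -0.20. Stc2, a secreted glycoprotein, averaged 5.19 ± 2.35 FPKM in siUPF3A and 8.13 ± 3.12 FPKM in siControl, a difference of -0.58. Slc6a9, a glycine transporter, was lower at -0.39, and Sesn2, a leucine sensor of the mTORC1 pathway, was higher by 0.46.

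The 12 cytosolic tRNA synthetases, often counted with the same response, held 4 higher and 0 lower genes with a median of 0.09. Wars was higher by 0.26, Yars by 0.20 and Lars by 0.19. Among 13 upstream kinases and regulators 6 were higher and 2 lower, with a median of -0.01. Eif2ak3, the kinase PERK, was lower at -0.41, while Rptor, the mTORC1 scaffold, was higher by 0.39 and the transcription factor Mycn by 0.69. The lists were chosen with earlier results known and some genes stand in more than 1 list, so their counts are a description beside the 22.3% lower and 26.1% higher of all genes.

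**Figure D5:**
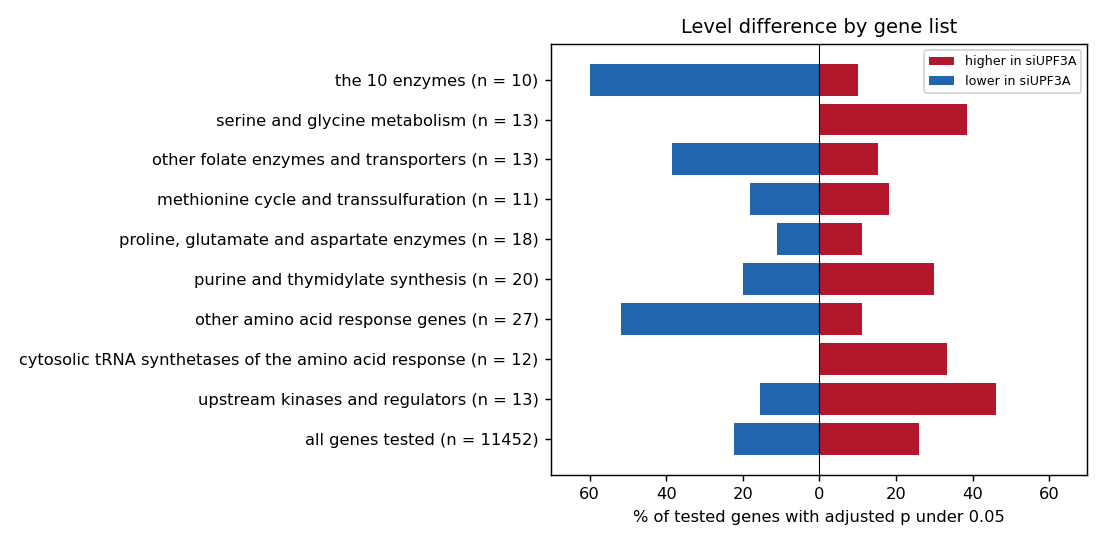
Share of the tested genes of each list (in %) called lower (blue, left of 0) or higher (red, right of 0) in siUPF3A at an adjusted p under 0.05, with the 10 enzymes at the top and all 11452 genes at the bottom. Of the 10 enzymes 6 were lower and 1 higher and of the other amino acid response genes 14 of 27 were lower and 3 higher, beside 22.3% lower and 26.1% higher of all genes.

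Patterns over the 8 conditions were also compared between genes, by the root mean square distance of their centred log2 values against 8089 genes with a mean of at least 5 FPKM. Shmt2 had the closest partner, Psmb1, a proteasome subunit, at a distance of 0.016. Phgdh was nearest to Ldha, lactate dehydrogenase, at 0.028, Mthfd1 to Hsd17b4, a peroxisomal enzyme, at 0.023, and Psat1 to Ndufa9, a subunit of respiratory complex I, at 0.030. The nearest genes were Snap23 for Mthfd1l at 0.026, Gm7334 for Mthfd2 at 0.028, Nsf for Aldh18a1 at 0.034, Cab39l for Asns at 0.036 and Cox7a2l for Psph at 0.038.

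Within the set, Asns and Mthfd1l were nearest each other at 0.057 and Phgdh and Psat1 at 0.063. Even so, genes outside the set were nearer than these partners, 15 for Asns, 69 for Mthfd1l, 45 for Phgdh and 79 for Psat1. Shmt1 stood farthest out, since its nearest fellow enzyme, Mthfd1, was at 0.18 and 2527 other genes were closer to it. These distances are across conditions of the same 8 libraries and are given without a test.

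GENCODE vM21 lists transcripts with the nonsense-mediated decay biotype for 2 of the 10 enzymes, Shmt1 and Mthfd2, with 1 such transcript each. Of the tested genes found in that annotation, 29.0% have at least 1. Shmt1 was higher and Mthfd2 lower in siUPF3A, and values per transcript were not analysed here.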

How the data were processed

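RNA-seq of P19 cells was used as the authors' deposited table of FPKM per gene with lower and upper confidence limits, 1 value per condition. Per the submitters' processing notes, TopHat2 and Cufflinks were used with the mm10 build; versions, strand setting and the level of the limits are not given in the sources used here, nor is how the 2 listed cultures were combined. All columns matched a condition by name. Low values showed no whole-read steps (at most 4.93% of 3953 low genes in 1 bin of 0.05 log2 units), so depth is unknown.

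Genes with a mean of at least 1 FPKM were tested as log2(FPKM + 1) in limma 3.58.1 (R 4.3.3), without a trend. Fold changes are on this scale, which understates the change of low genes. The fits were arm with time as a block (3 residual degrees of freedom), arm-specific slopes with time as a block (2) and 1 slope with arm (5); a call is an adjusted p under 0.05 (Benjamini-Hochberg). As no cultures are separate, p-values measure only the spread between times. The procedure was tested on simulated data with independent noise for each gene and condition. Such data hold no spread between cultures, so the simulation cannot show how the p-values would stand against it.

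The members, the 14 gene lists and the tests were chosen with earlier results of these data known. Named genes are all 10 members, Upf3a, the 3 tested genes of largest absolute moderated t statistic per list, and each member's nearest gene. Atf4, Cct6a, overlapping genes and the pair ratios lie outside this rule and were chosen after values were seen. A few genes it selects are not reported here. Coordinates and overlaps came from GENCODE vM21 (GRCm38), near-identical copies from BLAST 2.17.0 (at least 500 bases and 85% identity), and promoters from RefSeq (GRCm38.p6). Alternatives were other pseudocounts, filters, scalings and limma settings, no time block, and each time pair left out.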

Additional observations from a re-analysis of the deposited data

How the results depend on the processing

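Of the 10 enzymes, Psph, Mthfd2 and Aldh18a1 kept their lower call under 12 of 13 alternatives, the exception being the fit without the time block. The count of enzymes called lower was 6, and 3 when scaled to the ribosomal protein genes, without the 0 min pair and without the 105 min pair. It was 5 with a pseudocount of 0.1, without the filter on low values and with median-of-ratios scaling, 4 without the 15 min pair and 7 without the 225 min pair. Of all 11452 genes 2557 were called lower in the main fit. That number was 2329 with median-of-ratios scaling, 3170 with quantile normalization and 1243 when scaled to the ribosomal protein genes. Numbers of lower genes in all under the other alternatives are not given here. Without the time block no enzyme was called lower, where limma called 487 genes in all. There 1 enzyme and 1840 genes in all had an unadjusted p under 0.05. The count of enzymes called higher, 1, became 0 with quantile normalization, without the time block, without the 15 min pair and without the 225 min pair. With quantile normalization 2757 genes in all were called higher, beside 2986 in the main fit. The level difference of Shmt2 turned to -0.039 with quantile normalization, -0.01 without the 15 min pair and -0.02 without the 225 min pair, and that of Mthfd1 to -0.05 with quantile normalization and -0.016 without the 225 min pair. The count of slopes above 0, 10, was 5 with quantile normalization and 0 when scaled to the ribosomal protein genes. Under that last scaling the slopes were -0.062 for Phgdh, -0.066 for Psat1, -0.095 for Psph, -0.22 for Shmt1, -0.081 for Shmt2, -0.12 for Mthfd1, -0.19 for Mthfd2, -0.12 for Mthfd1l, -0.10 for Aldh18a1 and -0.11 for Asns. Quantile normalization gave -0.041 for Shmt1, -0.0079 for Mthfd2 and -0.0017 for Asns. Slope differences, none of them called, turned when scaled to the ribosomal protein genes to -0.0040 for Phgdh, -0.011 for Psph, -0.019 for Shmt1, -0.0039 for Mthfd1, -0.024 for Mthfd2, -0.012 for Mthfd1l and -0.012 for Aldh18a1. Without the 225 min pair they were -0.040 for Phgdh, -0.053 for Psat1, -0.031 for Psph, -0.021 for Shmt1, -0.026 for Shmt2, -0.020 for Aldh18a1 and -0.046 for Asns. Without the 0 min pair they were -0.0082 for Psph and -0.0076 for Shmt1, and with quantile normalization -0.010 for Shmt1. The cause of these shifts was not tested. One value per condition and an unknown depth limit every comparison, and no spread between cultures can be given.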
